A study of Mus musculus with 2 samples.

Results

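The Toll-like receptors studied here are the 10 genes Tlr1, Tlr2, Tlr3, Tlr4, Tlr7, Tlr8, Tlr9, Tlr11, Tlr12 and Tlr13, found by their symbols among the 32285 genes of the count matrices. They were followed by single-cell RNA sequencing in leukocytes of the pancreatic islets of female NOD mice, a strain prone to autoimmune diabetes, in 1 library from WT NOD and 1 labelled NOD.Cxcl16-/-. Both groups were 12 weeks old, share the NOD background and received no treatment named in the labels; the islets were picked by hand and sorted as live, CD45-positive and CD31-negative. The labels do not say how many mice were pooled, and since each group is 1 library, differences between them carry no test, and every interval below, at the 95% level, covers counting error only.

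Toll-like receptors are pattern recognition receptors of innate immunity. Members at the cell surface mostly sense microbial lipids and lipoproteins, while members in endosomes sense nucleic acids or, in rodents, a protozoan protein, and reach that compartment with the chaperone Unc93b1. Most signal through the adaptor Myd88, and Tlr3 through Ticam1, to NF-kB and to interferon regulatory factors such as Irf7. In islets they are studied because they link microbial or self nucleic acids to the antigen-presenting cells of autoimmune diabetes.

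The targeted gene was examined first. Cxcl16, a chemokine and scavenger receptor, stood at 99.2 UMIs per 1000000 (CPM) in the kept cells of the WT NOD library and at 102 CPM in those of the library labelled NOD.Cxcl16-/-. In the macrophage gate it stood at 879 and 517 CPM. Both libraries therefore held Cxcl16 transcripts, the one labelled NOD.Cxcl16-/- included. Which part of the gene was deleted is not given in the labels, so these 3' counts may lie outside it, and the library is called by its label throughout.

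The libraries held 93553185 and 98681133 unique molecular identifiers (UMIs, each a counted RNA molecule) in 13859 and 10554 barcodes, of which 10954 and 9359 were kept as cells, at medians of 4178 and 5008 UMIs. They shared 45 barcodes, 33 of them among the kept cells. A cell entered a gate by the number of marker genes of that cell type it held, and was barred by markers of other lineages; no receptor was a marker. The WT NOD library gave 67 macrophages, 27 classical monocytes, 179 dendritic cells, 49 plasmacytoid dendritic cells (pDC) and 1634 B cells, and the other gave 138, 22, 280, 41 and 1966. Dendritic cells were also split into cDC1 (87 and 146), cDC2 (20 and 50) and migratory DC (70 and 82). All 8 macrophage markers were present in both macrophage gates, which were set by these same markers, so their presence is no check of the gates. The hormone genes of islet endocrine cells also stood in the macrophage gates, at summed levels of 11509 and 11782 CPM. In the pDC gate the 5 plasma cell markers summed to 2018 CPM in WT NOD and 170 CPM in the other library. With a bar at 3 plasma cell markers the pDC gate held 48 and 41 cells. Whether the RNA of these hormone and plasma cell genes was foreign to the gated cells was not tested. Its part in the results was not tested either. T cells (6299 and 4805) served as background for each receptor except Tlr1.

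Promoter windows in the RefSeq table for GRCm38.p6 matched 8 of the 10 receptors. Those of Tlr11, Tlr12 and Tlr9 are shown, since Tlr11 and Tlr12 form one sensor for profilin but differed in the cells that held them, and Tlr9 had its highest level in pDC. Each runs over the 250 bases before the RefSeq start, with no exon of GENCODE M21 in it, and capitals mark matches to any of 11 motifs searched.
Tlr11, chr14:50357664-50357913, plus strand: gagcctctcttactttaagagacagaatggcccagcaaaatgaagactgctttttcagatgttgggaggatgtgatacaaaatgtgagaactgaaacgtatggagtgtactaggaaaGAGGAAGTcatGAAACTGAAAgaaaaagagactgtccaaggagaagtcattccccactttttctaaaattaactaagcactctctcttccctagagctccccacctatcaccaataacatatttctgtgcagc
Tlr12, chr4:128618620-128618869, minus strand: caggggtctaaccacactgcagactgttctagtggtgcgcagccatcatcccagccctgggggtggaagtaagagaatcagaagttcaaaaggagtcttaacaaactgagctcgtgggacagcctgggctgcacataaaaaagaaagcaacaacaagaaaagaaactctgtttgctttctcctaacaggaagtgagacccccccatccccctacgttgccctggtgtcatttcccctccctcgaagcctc
Tlr9, chr9:106222348-106222597, plus strand: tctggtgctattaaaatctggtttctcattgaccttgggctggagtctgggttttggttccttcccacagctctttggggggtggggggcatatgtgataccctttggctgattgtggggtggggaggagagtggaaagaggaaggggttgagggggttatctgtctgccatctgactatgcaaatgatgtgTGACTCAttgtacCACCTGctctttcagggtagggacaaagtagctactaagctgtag

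The motifs were searched on both strands of the full windows of all members, and overlaps were allowed. Counting positions from the start site, Tlr11 held the PU.1 motif GAGGAAGT at -133 to -126 and the interferon response element core at -122 to -113. Over all 32851 windows these occurred in 3.20% and 3.44%. Tlr9 held the AP-1 motif TGANTCA at -58 to -52 (7.81% of all windows) and the E-box CAGGTG at -45 to -40 (20.2%). The window of Tlr12 held none of the 11. Elsewhere, the shorter NF-kB site GGGANTTCC (1.68% of windows) occurred in Tlr2, the NF-kB site of 10 letters (0.411%) in Tlr3, the E-box in Tlr1 and Tlr2, and the PU.1 motif in Tlr1 and, past the start, in Tlr9. The Ets-IRF composite element (2.72%) and one form of it (0.225%), the AP-1 with IRF composite element (0.119%), the C/EBP site TTGCGCAA (0.183%) and the CRE TGACGTCA (1.79%) occurred in no window of a member. These are matches of letters, and the motifs were chosen with the levels below known.

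Among the surface receptors, Tlr2 stood well apart in macrophages and monocytes from all the other gates. Tlr2 (chromosome 3, 83836272 to 83841767 of GRCm38, minus strand) binds bacterial lipoproteins as a partner of Tlr1 or Tlr6. In macrophages it stood at 189 CPM (interval 158 to 223; 136 UMIs) in WT NOD and 216 CPM (194 to 241; 330 UMIs) in the library labelled NOD.Cxcl16-/-. In monocytes it stood at 205 CPM (152 to 270) and 235 CPM (180 to 302). The 2 gates did not differ beyond counting error in either library, and both lay above every other gate. Next came cDC2 at 43.1 and 55.4 CPM, then cDC1 at 21.3 and 35.6 CPM, and at the low end B cells at 2.45 and 2.13 CPM, against 2.04 and 2.07 CPM in T cells.

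With clusters in place of gates the macrophage level was 99.0 and 117 CPM. After thinning every cell to 2000 UMIs in 1 random draw, a Tlr2 UMI was seen in 30.6% (19 of 62) and 36.8% (49 of 133) of macrophages and in 51.9% and 45.5% of monocytes, with 5 shallower macrophages left out of each library and 0 monocytes. The T-cell background was 0.423% and 0.347%, with 1100 and 191 left out. Without thinning, 68.7% and 71.7% of macrophages held one (median depth 11538 and 10762.5 UMIs), against 0.984% and 1.21% of T cells (median depth 4126 and 4727 UMIs). The share expected from all possible draws was 29.6% and 32.3% in macrophages and 37.5% and 40.7% in monocytes.

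Tlr1, which pairs with Tlr2 to bind triacylated lipopeptides, had a wider spread over cell types. Tlr1 stood at 34.7 CPM (22.4 to 51.2) and 35.4 CPM (26.6 to 46.2) in macrophages, at 20.5 and 45.5 CPM in monocytes on 5 and 12 UMIs, at 11.0 and 9.20 CPM in B cells and at 10.6 and 6.20 CPM in dendritic cells. T cells held 269 and 190 of its UMIs, 7.22 and 5.80 CPM, the most of any member. Among T cells with a Cd4 UMI and none of Cd8a it stood at 9.78 CPM (7.90 to 12.0) and 7.24 CPM (5.76 to 8.98). Among those with Cd8a and without Cd4 it stood at 5.53 CPM (4.46 to 6.80) and 3.18 CPM (2.24 to 4.38), so the intervals of the 2 kinds did not overlap in either library. NK cells held 0 and 1 Tlr1 UMIs in 71 and 74 cells. Their intervals reach 10.9 and 15.2 CPM and so take in the T-cell levels.

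Tlr4, the receptor for lipopolysaccharide with Ly96 and Cd14, was low in every gate. It stood at 11.1 and 8.52 CPM in macrophages (8 and 13 UMIs), at 12.3 and 7.59 CPM in monocytes (3 and 2 UMIs) and at 7.13 CPM (5.49 to 9.11) and 5.79 CPM (4.50 to 7.35) in B cells, where most of the gated counts lay (64 and 68 UMIs). Macrophages, monocytes, cDC2 and B cells did not differ beyond counting error in either library. T cells stood at 0.268 and 0.397 CPM. The plasma cell gate stood at 5.54 CPM (1.14 to 16.2; 3 UMIs) and 10.8 CPM (4.65 to 21.2; 8 UMIs), the latter read above macrophages of that library with overlapping intervals. Of its partners, Cd14 stood at 375 and 572 CPM in macrophages and Ly96 at 40.2 and 35.4 CPM.

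**Figure D1:**
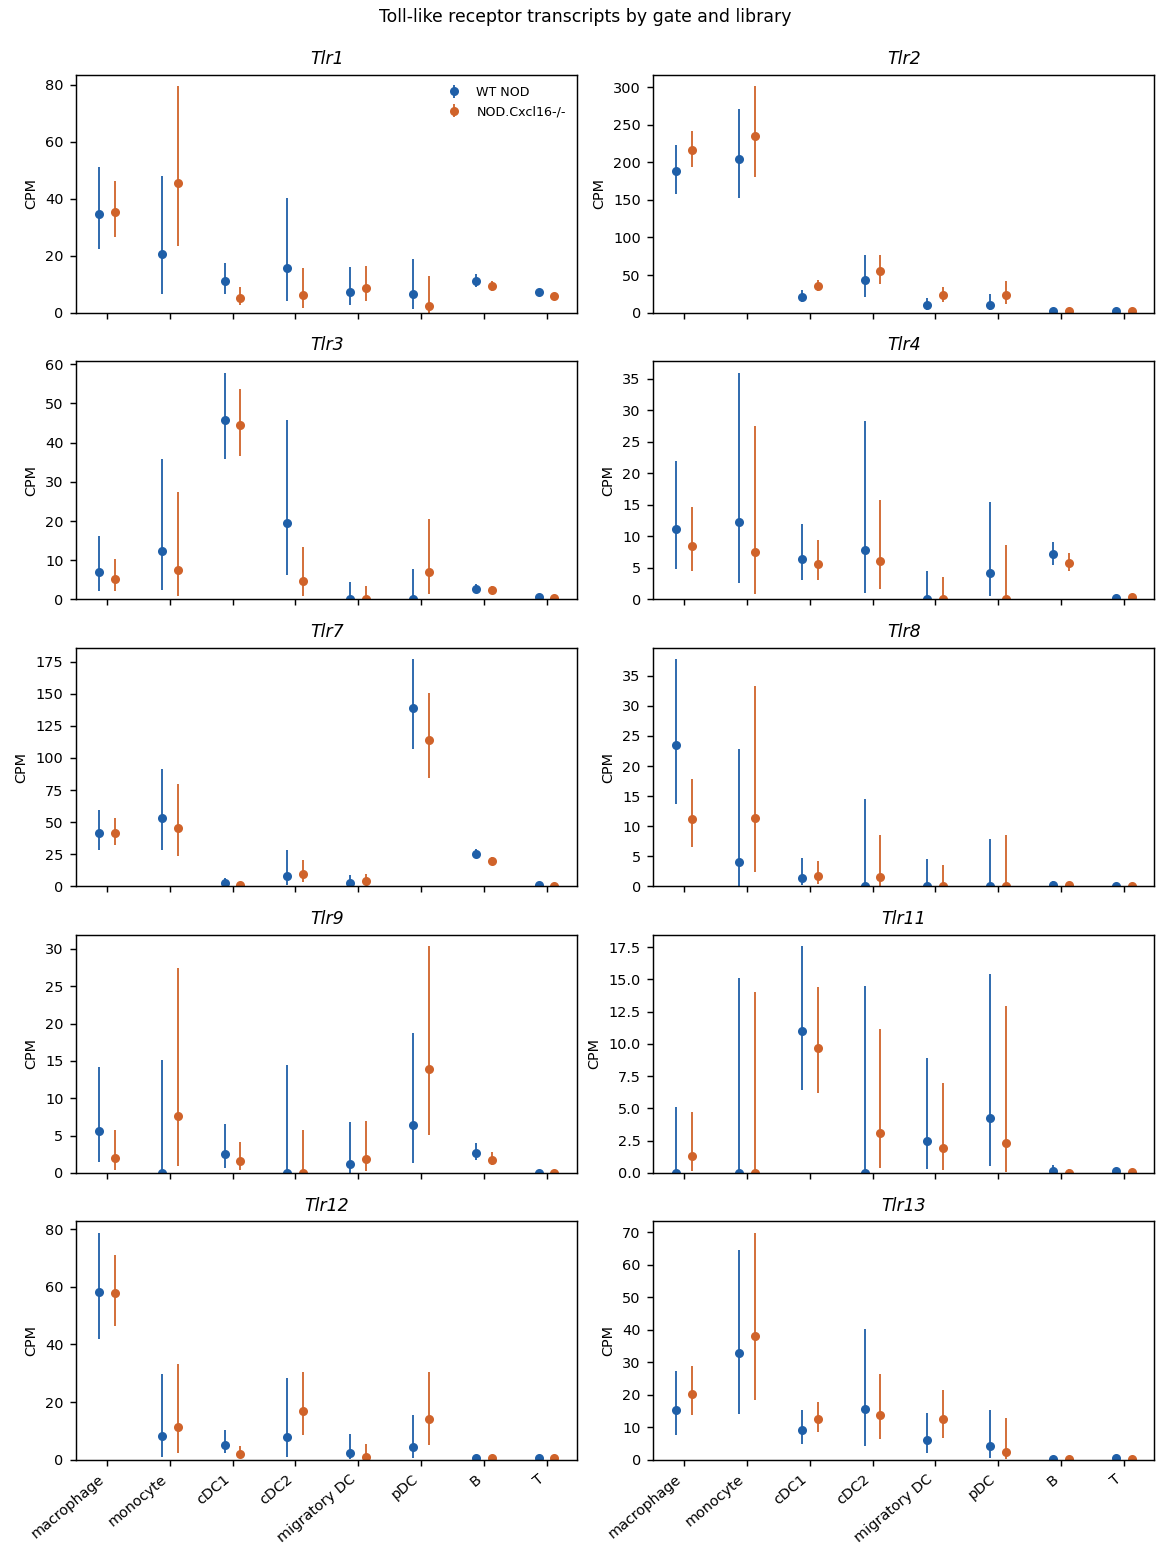
Each panel gives 1 receptor; the y axis is CPM on a linear scale of its own, starting at 0, the x axis the gates, points are the 2 libraries and bars the 95% Poisson intervals of the counts. Tlr2 is high in macrophages and monocytes, Tlr7 in pDC, Tlr12 in macrophages and Tlr3 in cDC1, in both libraries.

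Among the endosomal receptors, Tlr7 was read most in pDC. Tlr7 (X chromosome, 167304929 to 167330558, minus strand), a sensor of single-stranded RNA, stood there at 139 CPM (107 to 177; 65 UMIs) in WT NOD and 114 CPM (84.3 to 151; 49 UMIs) in the other library. Monocytes followed at 53.3 and 45.5 CPM and macrophages at 41.6 and 41.3 CPM, a pair that overlapped in both libraries. B cells stood at 25.4 CPM (22.2 to 28.9) and 20.02 CPM (17.5 to 22.8), above T cells at 1.23 and 0.488 CPM. The pDC interval lay above those of all the other gates in both libraries, and among the 5 gates dendritic cells were lowest, at 3.39 and 2.86 CPM. Leaving out pDC with 3 plasma cell markers gave 142 and 114 CPM, and with clusters in place of gates the pDC level was 59.5 and 71.0 CPM.

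Thinned to 2000 UMIs, 29.2% (14 of 48) and 14.6% (6 of 41) of pDC held a Tlr7 UMI in the single draw, where all possible draws gave 24.7% and 22.5%. In B cells the thinned shares were 4.35% and 3.85%, against 0.289% and 0.130% in T cells, with 69 and 43 shallower B cells left out. Without thinning, 67.3% and 61.0% of pDC held one (median depth 8092 and 8712 UMIs), as did 10.5% and 9.51% of B cells (median depth 4648.5 and 4685 UMIs) and 0.683% and 0.271% of T cells.

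Within B cells, Tlr7 was split by markers used to tell follicular from innate-like B cells, a split made with other results known. In B cells with a Bhlhe41 UMI and none of Fcer2a it stood at 34.7 CPM (25.7 to 45.7; 167 cells) in WT NOD and 33.8 CPM (26.1 to 43.1; 209 cells) in the other library. In B cells with Fcer2a and without Bhlhe41 it stood at 23.1 CPM (18.7 to 28.3; 837 cells) and 14.2 CPM (11.2 to 17.8; 1002 cells). Tlr7 was thus higher in the kind with Bhlhe41 in both libraries. The intervals of the 2 kinds overlapped in WT NOD and did not in the library labelled NOD.Cxcl16-/-. Overlap of separate intervals does not show that 2 levels are alike, and no interval of the ratio between the kinds was computed. The difference between the libraries was not tested.

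Tlr9 (chromosome 9, 106222598 to 106226883, plus strand), the sensor of unmethylated CpG DNA, was sparse. It had 3 and 6 UMIs in pDC, 6.40 CPM (1.32 to 18.7) and 14.0 CPM (5.12 to 30.4), and 24 and 21 UMIs in B cells, 2.67 CPM (1.71 to 3.98) and 1.79 CPM (1.11 to 2.74). No neighbours in its order of gates differed beyond counting error. T cells held 2 and 0 UMIs in 6299 and 4805 cells. Of the pDC with a Tlr9 UMI, 2 of 3 and 5 of 6 also held one of Tlr7, where the product of the shares gives 2.02 and 3.66 cells. Both counts are unthinned, over cells of unlike depth.

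Tlr8, next to Tlr7 on the X chromosome (167242696 to 167264329) and a sensor of RNA fragments, had 17 UMIs in macrophages of each library, 23.6 CPM (13.7 to 37.8) and 11.1 CPM (6.49 to 17.8). Barcodes with both myeloid and lymphoid markers held more, 22 and 51 UMIs, or 43.1% and 55.4% of those in kept cells. Monocytes held 1 and 3 UMIs, 4.10 and 11.4 CPM, and B cells 2 and 3. In pDC Tlr8 had 0 UMIs in both libraries, where 3 UMIs would be 6.41 and 6.98 CPM.

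Tlr3 and Tlr11 had their highest levels in cDC1, the cross-presenting dendritic cells. Tlr3 (chromosome 8, 45395665 to 45411080, minus strand), the sensor of double-stranded RNA, is overlapped by Gm45542 on the other strand, and whether the counting used strand is not given in the sources used here. It stood in cDC1 at 45.9 CPM (35.8 to 57.9; 71 UMIs) and 44.4 CPM (36.5 to 53.6; 110 UMIs). It had 0 UMIs in migratory DC of both libraries, where 3 UMIs would be 3.686 and 2.888 CPM. The Tlr3 level read in cDC1 was 12.4-fold and 15.4-fold that floor, with its own counting error left out. In cDC2 it stood at 19.6 and 4.62 CPM on 5 and 3 UMIs, the first overlapping cDC1. Macrophages stood at 6.94 and 5.24 CPM, B cells at 2.67 and 2.30 CPM and T cells at 0.591 and 0.397 CPM. Thinned, 8.05% and 6.25% of cDC1 held a Tlr3 UMI, against 0.0962% and 0.0433% of T cells. Without thinning, 42.5% and 34.9% of cDC1 held one (median depth 16318 and 16258 UMIs), against 0.302% and 0.2497% of T cells.

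Tlr11 (chromosome 14, 50357914 to 50363663, plus strand), a receptor for the profilin of Toxoplasma, stood at 11.0 CPM (6.40 to 17.6; 17 UMIs) and 9.70 CPM (6.21 to 14.4; 24 UMIs) in cDC1. The next gates overlapped it, pDC in WT NOD at 4.27 CPM (0.517 to 15.4) and cDC2 in the other library at 3.08 CPM (0.373 to 11.1). Migratory DC held 2 UMIs in each library, B cells 1 and 0, and monocytes 0 in both. T cells held 5 and 2 UMIs, 0.134 and 0.0610 CPM. Of the cDC1 with a Tlr11 UMI, 7 of 12 and 9 of 20 also held Tlr3, where the product of the shares gives 5.10 and 6.99 cells. These counts are unthinned, and the part of unlike depth between cells in them was not tested.

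Tlr12, the partner of Tlr11 in sensing profilin, was instead read most in macrophages. Tlr12 (chromosome 4, 128615443 to 128618619, minus strand) stood there at 58.3 CPM (42.0 to 78.8; 42 UMIs) and 57.7 CPM (46.3 to 71.1; 88 UMIs), above every other gate in both libraries. With clusters in place of gates it was 29.4 and 28.3 CPM. In cDC1, where Tlr11 lay, it stood at 5.17 and 2.02 CPM on 8 and 5 UMIs. In pDC it had 2 and 6 UMIs, 4.27 CPM and 14.0 CPM, and in cDC2 2 and 11 UMIs. T cells stood at 0.510 and 0.610 CPM. Thinned, 9.68% and 13.5% of macrophages held a Tlr12 UMI, against 0.115% and 0.108% of T cells. Unthinned, the shares were 32.8% and 39.9%, against 0.302% and 0.395%.

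Tlr13, a sensor of bacterial ribosomal RNA, followed the order of Tlr2 over the 5 gates at lower counts. It stood at 32.8 CPM (14.2 to 64.6; 8 UMIs) and 37.9 CPM (18.2 to 69.8; 10 UMIs) in monocytes, at 15.3 and 20.3 CPM in macrophages, at 8.67 and 12.9 CPM in dendritic cells and at 0.334 and 0.0852 CPM in B cells. Monocytes and macrophages overlapped in both libraries. Over the 20 points of 10 gates in 2 libraries, Tlr2 and Tlr13 had a Pearson correlation of 0.882 on log2(CPM + 1), the highest among pairs of members; points of 1 library share its depth and free RNA.

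By the gate of the highest CPM in both libraries, among the 5 gates, Tlr12 led in macrophages, Tlr2 and Tlr13 in monocytes, Tlr3 and Tlr11 in dendritic cells, and Tlr7 and Tlr9 in pDC. That is 1, 2, 2 and 2 of 10 members, where 5.68%, 6.96%, 7.2% and 16.6% of the 11660 genes with enough counts were highest in these gates. B cells led for 0 of 10, against 19% of genes. Tlr1, Tlr4 and Tlr8 led in different gates in the 2 libraries. These places were loose for the members whose first gates overlap, and with clusters in place of gates, which named no monocyte cluster, macrophages led for 6 members.

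Between the libraries, 1 of the 24 pairs of receptor and gate with enough counts in the 5 gates differed by 2-fold or more, Tlr8 in macrophages. Log2 ratios are given as the library labelled NOD.Cxcl16-/- over WT NOD with 1 CPM added to both, for genes with at least 20 UMIs over both libraries, and their intervals are those of the plain ratio. In macrophages, Tlr2 gave 0.20 (-0.09 to 0.50), Tlr12 -0.01 (-0.56 to 0.55), Tlr7 -0.01 (-0.66 to 0.67) and Tlr1 0.03 (-0.68 to 0.78). Tlr8 was 1 of 7 measured members at least 2-fold lower there, at -1.02 (-2.14 to -0.02), where 2.88% of the 7420 genes were. It lay at -0.33 with clusters in place of gates and at -1.35 as a mean over cells. Classical monocyte markers in that gate summed to 787 CPM in WT NOD and 239 CPM in the other library, and their part in this ratio was not tested. Either way, 6.79% of genes passed 2-fold in macrophages.

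In dendritic cells Tlr2 had the largest ratio of the 8 measured members, at 0.82 (0.38 to 1.33), from 19.6 CPM (14.6 to 25.7) to 35.3 CPM (29.8 to 41.5), and it lay between 0.59 and 0.93 under the 13 alternative settings. None of the 8 members passed 2-fold, against 3.46% of genes. It was higher in cDC1, at 0.71 (0.15 to 1.36), and in migratory DC, at 1.15 (0.03 to 2.60), on 8 and 24 UMIs; the latter was past 2-fold, where 4.3% of genes were, and was 0.53 with looser gates. In cDC2 the Tlr2 ratio was 0.36 (-0.64 to 1.49), and -0.69 with stricter gates. Tlr1 in cDC1 was lower, at -0.94 (-2.23 to 0.06) on 17 and 13 UMIs, and 0.12 with clusters in place of gates. The summed macrophage markers were higher along with Tlr2, from 141 to 199 CPM in dendritic cells, from 169 to 208 CPM in cDC1 and from 57.7 to 152 CPM in migratory DC, with all 8 markers above 0 each time. In cDC2 they stood at 239 and 243 CPM, with 5 and 7 markers above 0. Islet hormone genes moved the other way in dendritic cells, from 2763 to 398 CPM, and in migratory DC, from 8006 to 272 CPM. They went from 439 to 354 CPM in cDC2 and from 428 to 466 CPM in cDC1. The part of either in the Tlr2 ratios was not tested. Tlr3 in cDC1 gave -0.04 (-0.49 to 0.41) and Tlr11 -0.16 (-1.14 to 0.81).

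In monocytes 0 of 2 measured members passed 2-fold (9.99% of genes did), with Tlr2 at 0.20 (-0.36 to 0.77). In pDC Tlr7 gave -0.28 (-0.85 to 0.27), the only member measured, where 6.98% of genes passed, and it turned to 0.25 with clusters in place of gates. In B cells all 6 measured members were lower by less than 2-fold, where 5133 of 11760 genes were lower and 1.26% passed 2-fold. The median of the 6 members was -0.25, against 0.03 over all these genes. The B-cell ratio of Tlr7 was -0.33 (-0.61 to -0.07), on 228 and 235 UMIs, and that of Tlr1 -0.24 (-0.67 to 0.15). With clusters in place of gates Tlr2 and Tlr3 turned to 0.21 and 0.19 in B cells.

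**Figure D2:**
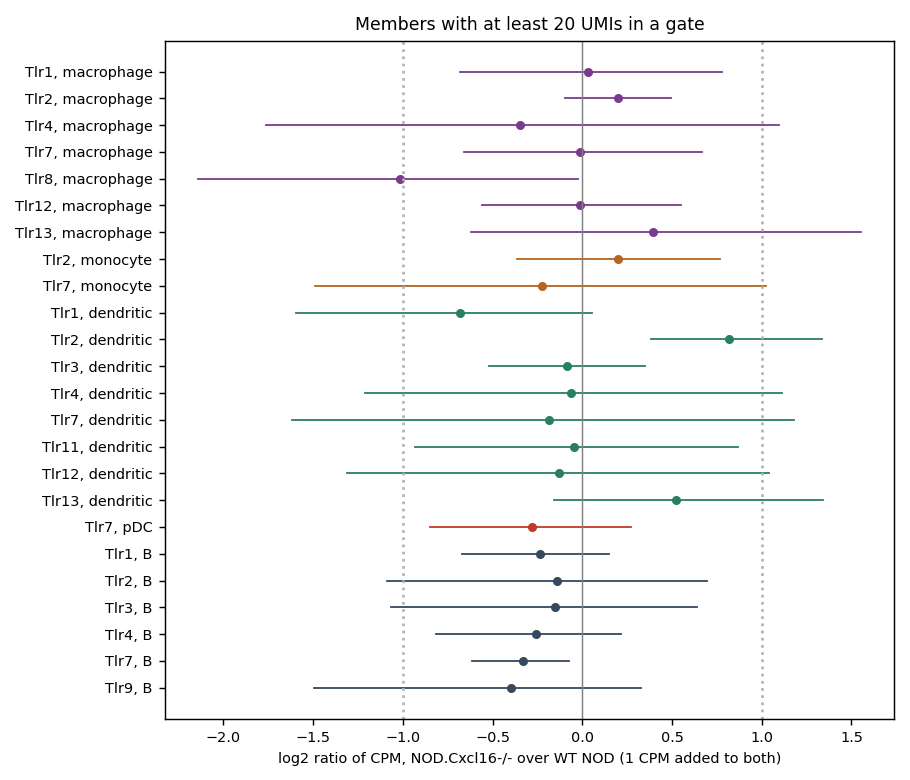
The x axis is the log2 ratio of CPM between the libraries, 1 row per receptor and gate with at least 20 UMIs among the 5 gates, the dendritic kinds not shown apart; lines are 95% intervals of the ratio from counting error, coloured by gate, and dotted lines mark 2-fold. Tlr2 in dendritic cells, Tlr7 in B cells and Tlr8 in macrophages are the rows with intervals that leave out 0.

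The pathway around the receptors was read from 8 lists of 58 genes. At least 2-fold either way between the libraries were 2 of 46 measured genes in macrophages, 3 of 34 in monocytes, 2 of 52 in dendritic cells, 1 of 39 in pDC and 0 of 55 in B cells. The background shares were 6.79%, 9.99%, 3.46%, 6.98% and 1.26%, so these counts are no result about the pathway as a whole. The medians of the pathway genes were 0.03, -0.02, -0.00, -0.02 and 0.02.

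Irf7, the interferon regulatory factor downstream of Tlr7 and Tlr9 and itself induced by interferon, was past 2-fold in every gate of macrophages, monocytes and dendritic cells. In macrophages it stood at 401 CPM (289 UMIs) in WT NOD and 87.2 CPM (133 UMIs) in the other library, a log2 ratio of -2.19 (-2.51 to -1.90). In monocytes it stood at 529 and 152 CPM, at -1.79 (-2.35 to -1.28), and in dendritic cells at 164 and 43.2 CPM, at -1.90 (-2.18 to -1.67). All 3 dendritic kinds were lower, with cDC1 at -1.56, cDC2 at -1.77 and migratory DC at -2.62. The B-cell ratio was -0.88 (-1.18 to -0.65) and that of pDC -0.35 (-0.79 to 0.07), at 241 and 188 CPM, neither past 2-fold. Across the alternative settings the macrophage ratio ran from -2.58 to -1.77, the dendritic one from -2.14 to -1.44 and the pDC one from -0.77 to -0.26.

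Among genes for transport and accessory roles, Slc15a3, an endolysosomal peptide transporter, was higher in dendritic cells of the library labelled NOD.Cxcl16-/-, at 65.6 against 22.6 CPM (log2 ratio 1.495, 1.13 to 1.96), and the ratio was 0.80 with clusters in place of gates. It was 1.54 in cDC1 and 1.75 in migratory DC, where clusters gave 0.24. It lay below 2-fold in macrophages, at 0.80 (0.40 to 1.23), and in B cells, at 0.74 (0.41 to 1.20). Cd14 had 0 UMIs in WT migratory DC and 25 in the other library, a level 6.53-fold the WT NOD floor of 3 UMIs. Its log2 ratio there shrank to 0.59 without the bar on lymphoid markers. In cDC2, Cd14 (1.04), Cd180 (1.98), Slc15a3 (1.00) and Pik3ap1 (1.10) passed 2-fold, on 20 WT NOD cells. All 4 calls were lost under other gates, since Cd14 lay at -0.13 with stricter gates and Slc15a3 at 0.78 there, and Cd180 at 0.22 and Pik3ap1 at 0.04 with looser ones. In cDC2 and migratory DC 5 of 40 and 6 of 43 pathway genes passed either way, against 8.37% and 6.86% of genes, and in cDC1 2 of 49, against 4.49%. Unc93b1 stood at 420 CPM in macrophages of both libraries, at a log2 ratio of -0.00, and at 495 and 400 CPM in pDC.

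Other pathway genes past 2-fold were few. In monocytes Irf8 (-1.07) and Tcf4 (-1.09), transcription factors of dendritic and plasmacytoid cells, were lower, but Irf8 lay at -0.57 with looser gates and Tcf4 at -0.08 without the bar on lymphoid markers. In migratory DC Irf8 (-1.06), Ctsl (-1.05), a protease that cleaves endosomal receptors, and Ikbkg (-1.18), a subunit of the kinase that activates NF-kB, were lower. With clusters in place of gates Irf8 lay at 0.08 and Ctsl at -0.00, and without the bar on lymphoid markers Ikbkg lay at -0.48. Ticam1, the adaptor of Tlr3, was higher in macrophages (1.11) on 4 and 20 UMIs, and lay at 0.45 with clusters in place of gates. Lgmn, another endolysosomal protease, was higher in pDC (1.03) and lay at 0.89 with looser gates.

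**Figure D3:**
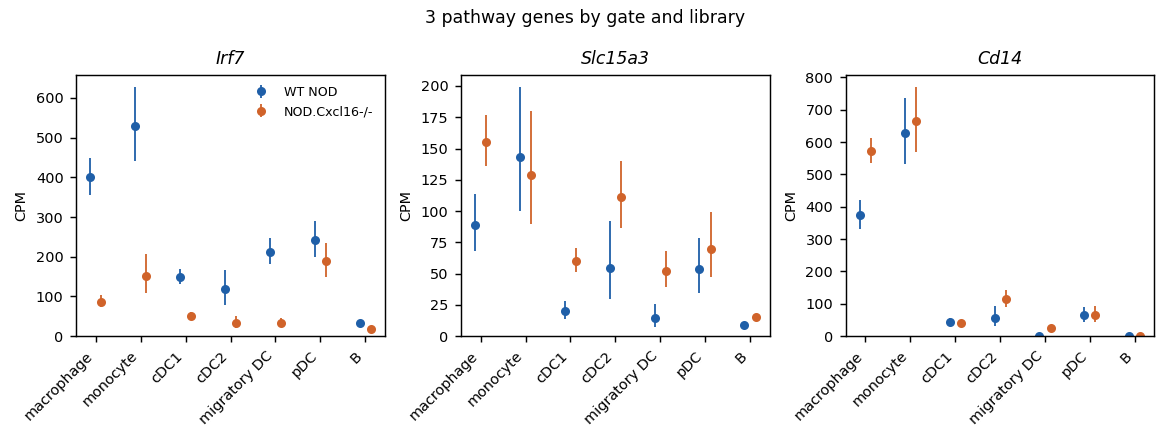
The y axis is CPM from 0, the x axis the gates, points are the 2 libraries and bars 95% Poisson intervals. Irf7 is lower in the library labelled NOD.Cxcl16-/- in macrophages, monocytes and all dendritic kinds while its pDC intervals overlap, and Slc15a3 is higher in cDC1 and migratory DC.

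The genes most like each receptor, by Pearson correlation of log2(CPM + 1) over the 20 points, were Fcgr1 (0.952), Clec4a3 (0.946) and Sash1 (0.945) for Tlr2, and Nlrp3 (0.965), Lrrc25 (0.954) and Ccrl2 (0.954) for Tlr13. For Tlr12 they were Tgm2 (0.907), Tcirg1 (0.899) and Fcgr1 (0.888), and for Tlr7 Ldlrad3 (0.908), Rhbdf2 (0.895) and Tpd52 (0.886). For Tlr3 they were Naaa (0.860), Id1 (0.855) and 2310040G24Rik (0.836), for Tlr1 Wdfy3 (0.871), Pde7b (0.858) and Ifit3 (0.852), and for Tlr4 Spon1 (0.878), Lyl1 (0.823) and Ryr1 (0.791). Fcgr1 and Naaa are gate markers and so not independent of the gates. Tlr8, Tlr9 and Tlr11 had under 100 UMIs and were not ranked.

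A macrophage held a median of 2 of the 10 receptors in both libraries and at most 5 and 7, while the median B cell held 0. After thinning, the mean number per cell was 0.726 and 0.789 in macrophages, 0.852 and 0.773 in monocytes, 0.375 and 0.268 in pDC, 0.131 and 0.181 in dendritic cells and 0.101 and 0.0848 in B cells, against 0.0271 and 0.0204 in T cells. These means come from the 1 random draw. That draw gave a Tlr2 UMI in 51.9% and 45.5% of monocytes, where all possible draws gave 37.5% and 40.7%. It gave a Tlr7 UMI in 29.2% and 14.6% of pDC, where all possible draws gave 24.7% and 22.5%. No order of monocytes and macrophages, or of the libraries in pDC, is therefore read from the means. In the draw, migratory DC held the fewest among the dendritic kinds, at 0.0758 and 0.113. There cDC1 held 0.184 and 0.201, and cDC2 held 0.1 and 0.24 in 20 and 50 cells. The draw gave a Tlr2 UMI in 0% and 10% of cDC2, where all possible draws gave 7.87% and 9.67%. No order of cDC2 against the other kinds, or of the libraries in cDC2, is therefore read from the drawn means. Unthinned, at unlike depths, the means were 0.329 and 0.463 in migratory DC, 1.34 and 1.26 in cDC1 and 1.2 and 1.08 in cDC2.

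**Figure D4:**
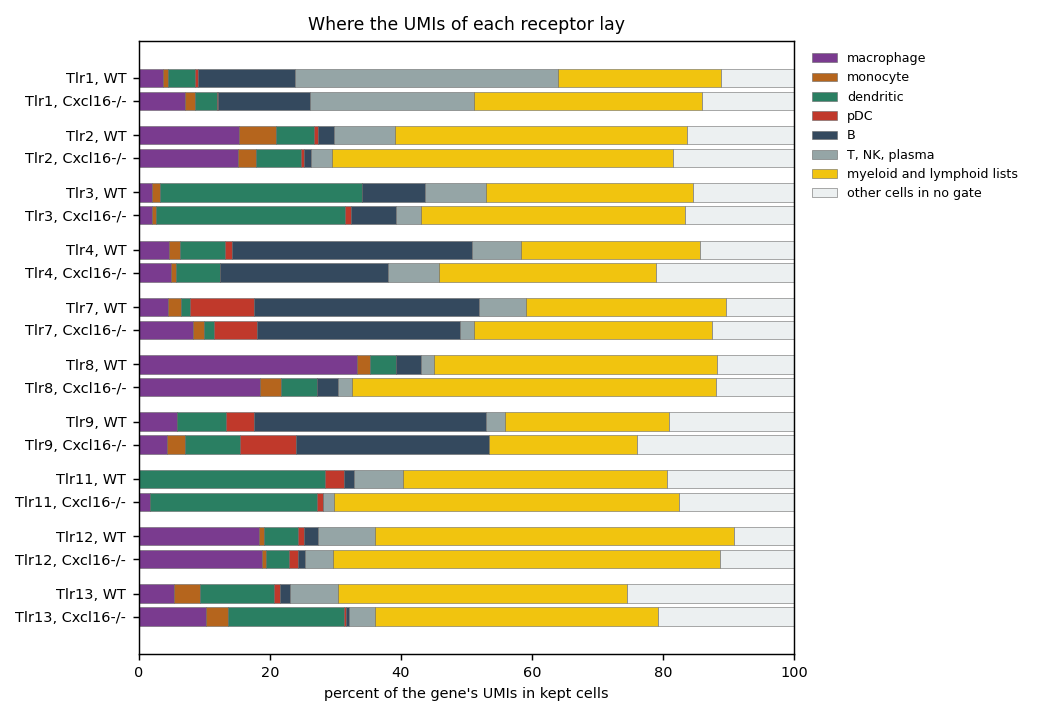
Bars give, for each receptor and library, the percent of its UMIs in kept cells that lay in each gate, in barcodes with both myeloid and lymphoid markers, and in other cells in no gate. B cells hold the largest gated share of Tlr7, Tlr9 and Tlr4, and T, NK and plasma cells that of Tlr1. Mixed barcodes hold a large share of Tlr2, Tlr8, Tlr11, Tlr12 and Tlr13, and a smaller one of the other receptors.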

How the data were processed

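Each library was deposited as a matrix of UMI counts per gene and cell barcode, made with the 10x 3' v3.1 chemistry and, per the submitters' processing notes, Cell Ranger 7.0.1 and mm10; whether intronic reads were counted is not given in the sources used here. Barcodes with at least 500 genes and at most 10% mitochondrial counts were kept, and those with the highest doublet scores were removed, a share of 0.8% for each 1000 barcodes (1537 and 891; scanpy 1.11.5, Python 3.11.15). Gates required 5 of 8 macrophage (at least 2 of them C1q genes), 3 of 7 classical monocyte, 4 of 7 cDC1, 3 of 6 cDC2, 4 of 7 migratory DC, 4 of 6 pDC or 4 of 6 B markers, and 4 of 6 T markers. Myeloid gates were barred at 3 markers of T, B or plasma cells or 2 of NK cells, except that pDC were not barred for plasma cell markers. Cells past several dendritic lists counted in the dendritic gate only. The gate rule was set after marker counts and gate sizes were seen, and the thinning was redrawn, as 1 draw per cell, after receptor values were seen. In all, 2595 and 1986 kept cells (23.7% and 21.2%) fell in no gate.

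Counts were summed per gate and library and divided by the gate's total to CPM; intervals are exact Poisson (CPM), Clopper-Pearson (shares) or exact binomial (ratios), from scipy 1.17.1, and UMIs of free RNA count like those of the cell. A count of 0 was given a floor of 3 counts, which lies below the upper end of its exact Poisson interval. Genes needed 20 UMIs for a ratio, 50 for the highest gate and 100 for likeness. Of the 32285 gene IDs, 32235 were in GENCODE M21. All 10 members were named, pathway genes where past 2-fold or as partners of a member, and the 3 genes most like each member. Members and lists were chosen with earlier results of these data known. Scripts were tested on simulated data. Alternatives were looser and stricter gates, Leiden clusters (resolution 2), cell filters, doublets kept, other totals, minimums and pseudocounts, other thinning depths, and, added after seeing the data, other bars and exact expected shares.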

Additional observations from a re-analysis of the deposited data

Results flagged for a closer look

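Receptor transcripts also lay outside the gates. In barcodes that passed both a myeloid and a lymphoid marker list, the 10 receptors summed to 97.7 CPM in WT NOD (1175 UMIs in 431 barcodes) and 129.9 CPM in the library labelled NOD.Cxcl16-/- (2461 UMIs in 592 barcodes). These barcodes had median depths of 21707 and 24853 UMIs and held 35.9% and 45.4% of all receptor UMIs in kept cells. Tlr2 alone stood there at 33.0 and 60.0 CPM. In cells that passed no marker list, the receptors summed to 68.3 CPM (1020 cells) and 84.2 CPM (789 cells), with 8.20% and 8.59% of the receptor UMIs. All 4 sums are above what a count of 0 allows. These cells enter no gate; some of them enter the values given with clusters in place of gates or without the bar on lymphoid markers.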

How the results depend on the processing

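No paired analysis was possible because each group has 1 library, and for the same reason no replicate could be left out. The count of receptors highest in a gate in both libraries moved most. For macrophages (1) it was 3 with looser gates, 2 with stricter ones, 6 with clusters, 5 without the lymphoid bar, 3 with a bar at 1 plasma cell marker and 3 by thinned shares. For monocytes (2) it was 1 with looser gates, without the bar, with the 1-marker bar and by thinned shares, and clusters gave no monocytes or cDC2. For dendritic cells (2) it was 1 with looser or stricter gates, the 1-marker bar and thinned shares, and for pDC (2) it was 1 by the mean over cells, the 1-marker bar and expected shares. Pairs at least 2-fold higher (0) numbered 1 with doublets kept, 2 without the bar and 8 with no UMI minimum. Those at least 2-fold lower (1) numbered 0 with looser gates, clusters, no bar, a pseudocount of 5 CPM or a minimum of 50 UMIs, and 4 with no minimum.

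Thinned to 1000 and 4000 UMIs, the Tlr2 share of macrophages was 14.9% and 61.8% in WT NOD and 17.4% and 53.6% in the other library, and that of its monocytes 18.2% and 77.3%. For Tlr7 in B cells it was 2.40% and 8.46%, then 1.53% and 8.28%, for Tlr12 in macrophages of the second library 5.07% and 23.2%, and for Tlr3 in its cDC1 2.74% and 13.5%. In WT NOD, 1000 UMIs gave 25.9% for Tlr2 in monocytes and 8.16% for Tlr7 in pDC, and 4000 UMIs 21.8% for Tlr12 in macrophages. At 4000 UMIs Tlr7 in pDC of the second library was 46.2%.

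Cd14 in cDC2 reversed to -0.13 with stricter gates and Irf8 in migratory DC to 0.079 with clusters; the causes were not tested. Of the 32 receptor ratios, dendritic kinds included, 18 changed sign under at least 1 alternative, none of them past 2-fold, among them Tlr2 in cDC2 (0.36 to -0.69 with stricter gates), Tlr1 in cDC1 (-0.94 to 0.12 with clusters) and in macrophages (0.03 to -0.63 by the mean over cells), and Tlr13 in macrophages (0.39 to -0.35 with clusters). Of the other values of single genes recomputed, 689 moved by less than their interval and 21 by more. With 20 to 49 monocytes, pDC or WT NOD cDC2 cells per gate, counts limit Tlr8, Tlr9 and Tlr11 most.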
